A study of Homo sapiens with 24 samples.

Results

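The p53 target genes described here are FAS, CDKN1A, MDM2, CCNG1, BAX, TP53INP1, SESN1, RRM2B and ZMAT3, measured across 24 microarrays of human embryonic stem cells. They were chosen as the probe sets whose annotation named exactly 1 of 10 listed symbols. This gave 29 of 54675 probe sets for 9 genes, of 19775 genes with a probe set of their own. BBC3, the remaining symbol, was named only on 1 probe set together with 2 microRNA genes and was not analysed here. FAS was covered by 5 probe sets, MDM2 by 10, ZMAT3 by 5, TP53INP1 by 3 and BAX by 2, and CDKN1A, CCNG1, SESN1 and RRM2B by 1 each. All 9 genes passed the filter on low values in both parts of the study, and 24 and 22 of the 29 probe sets passed it in the inhibitor part and the medium part. On the GRCh38.p14 assembly the genes lie at chr10:88964050-89017059 (FAS), chr6:36676463-36687332 (CDKN1A), chr12:68808172-68850686 (MDM2), chr5:163437571-163457640 (CCNG1), chr19:48954875-48961798 (BAX), chr8:94925972-94949378 (TP53INP1), chr6:108984309-109094846 (SESN1), chr8:102204501-102238961 (RRM2B) and chr3:179017223-179072513 (ZMAT3).

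The study asked how mouse embryonic fibroblast feeder cells, medium conditioned by such cells and a block of lactate export alter gene expression in the lines H1, H9 and HSF1. In the inhibitor part, H1, H9 and HSF1 cells were kept in feeder-supported or feeder-free culture and received for 5 days either 250 nM AZD3965, a small molecule that inhibits the lactate transporter MCT1, or DMSO, the vehicle. Its 4 groups were therefore feeder-supported with inhibitor, feeder-supported with DMSO, feeder-free with inhibitor and feeder-free with DMSO, each with 1 array per line. In the medium part, feeder-free H9 cells and feeder-free HSF1 cells received conditioned or unconditioned medium, with 3 biological replicates in each of the 4 groups. The duration of the medium treatment is given as 5 days on the labels of the conditioned-medium samples but as 24 hours in the design text. HSF1 is here the name of a cell line, and none of the groups carries a genetic change in the labels.

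The transcription factor p53 is stabilised when DNA is damaged or when a cell is otherwise stressed, and it then binds paired copies of a short consensus element near its target genes. The targets act in cell cycle arrest, cell death, DNA precursor supply and restraint of growth signalling, and one of them, MDM2, is the ubiquitin ligase that marks p53 itself for degradation. Human embryonic stem cells are known for a readiness to die after DNA damage and for holding p53 at a low level while they grow undisturbed. FAS encodes a death receptor of the cell surface, CDKN1A the cyclin-dependent kinase inhibitor p21, and BAX a protein that permeabilises the outer mitochondrial membrane.

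RefSeq promoter windows of GRCh38.p14, each 300 bases with 250 before a transcript start, were available for 8 of the 10 listed symbols, BBC3 among them, as 17 windows. They were searched on both strands for the 10-base p53 consensus element without mismatch and for the 20-base p53 site of adjacent elements with at most 2 mismatches. The 20-base site was present in 1 FAS window and in 2 overlapping MDM2 windows, against 0.649% of all 35116 windows. A FAS window and a SESN1 window held the exact 10-base element, against 6.63% of all windows. The FAS and MDM2 windows are shown because these are the members with a 20-base match. Capitals mark the 20-base match, which has 2 mismatches in each. The 250 bases before each start are printed, both windows are on the plus strand (chr10:88991181-88991430 and chr12:68808767-68809016), and both lie inside their gene before an internal transcript start.
FAS: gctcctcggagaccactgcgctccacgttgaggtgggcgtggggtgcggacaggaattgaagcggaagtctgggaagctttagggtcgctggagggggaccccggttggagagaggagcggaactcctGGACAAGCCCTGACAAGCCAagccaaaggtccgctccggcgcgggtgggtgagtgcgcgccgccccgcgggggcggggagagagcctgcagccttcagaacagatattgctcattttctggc
MDM2: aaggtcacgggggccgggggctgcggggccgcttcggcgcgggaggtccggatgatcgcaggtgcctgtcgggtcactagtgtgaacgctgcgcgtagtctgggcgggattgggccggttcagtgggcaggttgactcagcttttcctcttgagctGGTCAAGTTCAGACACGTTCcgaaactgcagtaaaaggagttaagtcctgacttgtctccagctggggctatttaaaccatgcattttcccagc

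The FAS match ran from base 88991309 to 88991328 of chromosome 10 and began 122 bases before the transcript start, and its first element GGACAAGCCC matched the consensus exactly. The MDM2 match ran from base 68808923 to 68808942 of chromosome 12 and began 94 bases before the start. The exact element of SESN1, GGACAAGTCT, lay on the minus strand at bases 109009028 to 109009037 of chromosome 6. A match is a description of the letters, and binding of p53 was not measured in these data.

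Levels are log2 values from RMA, so a difference of 1 is a factor of 2, and levels of different probe sets are not compared with each other. Each gene is represented by its probe set with the highest mean over the 24 arrays. The 13 pluripotency markers with a probe set of their own were above 6 on every array, with NANOG at 11.60 to 12.49. Both feeder-supported HSF1 arrays stood apart, with correlations of 0.860 to 0.961 with the other 22 arrays, which correlated with each other at 0.948 to 0.998. The difference between the 3-prime and 5-prime ACTB control probe sets, which grows as RNA is degraded, ran from 1.42 to 1.84 in H9 cells in conditioned medium, against 1.07, 3.25 and 2.89 in replicates 1, 2 and 3 in unconditioned medium. Calls of member genes by their representative probe sets that rest on these arrays are given with and without them. For single probe sets only counts are given without them.

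**Figure D1:**
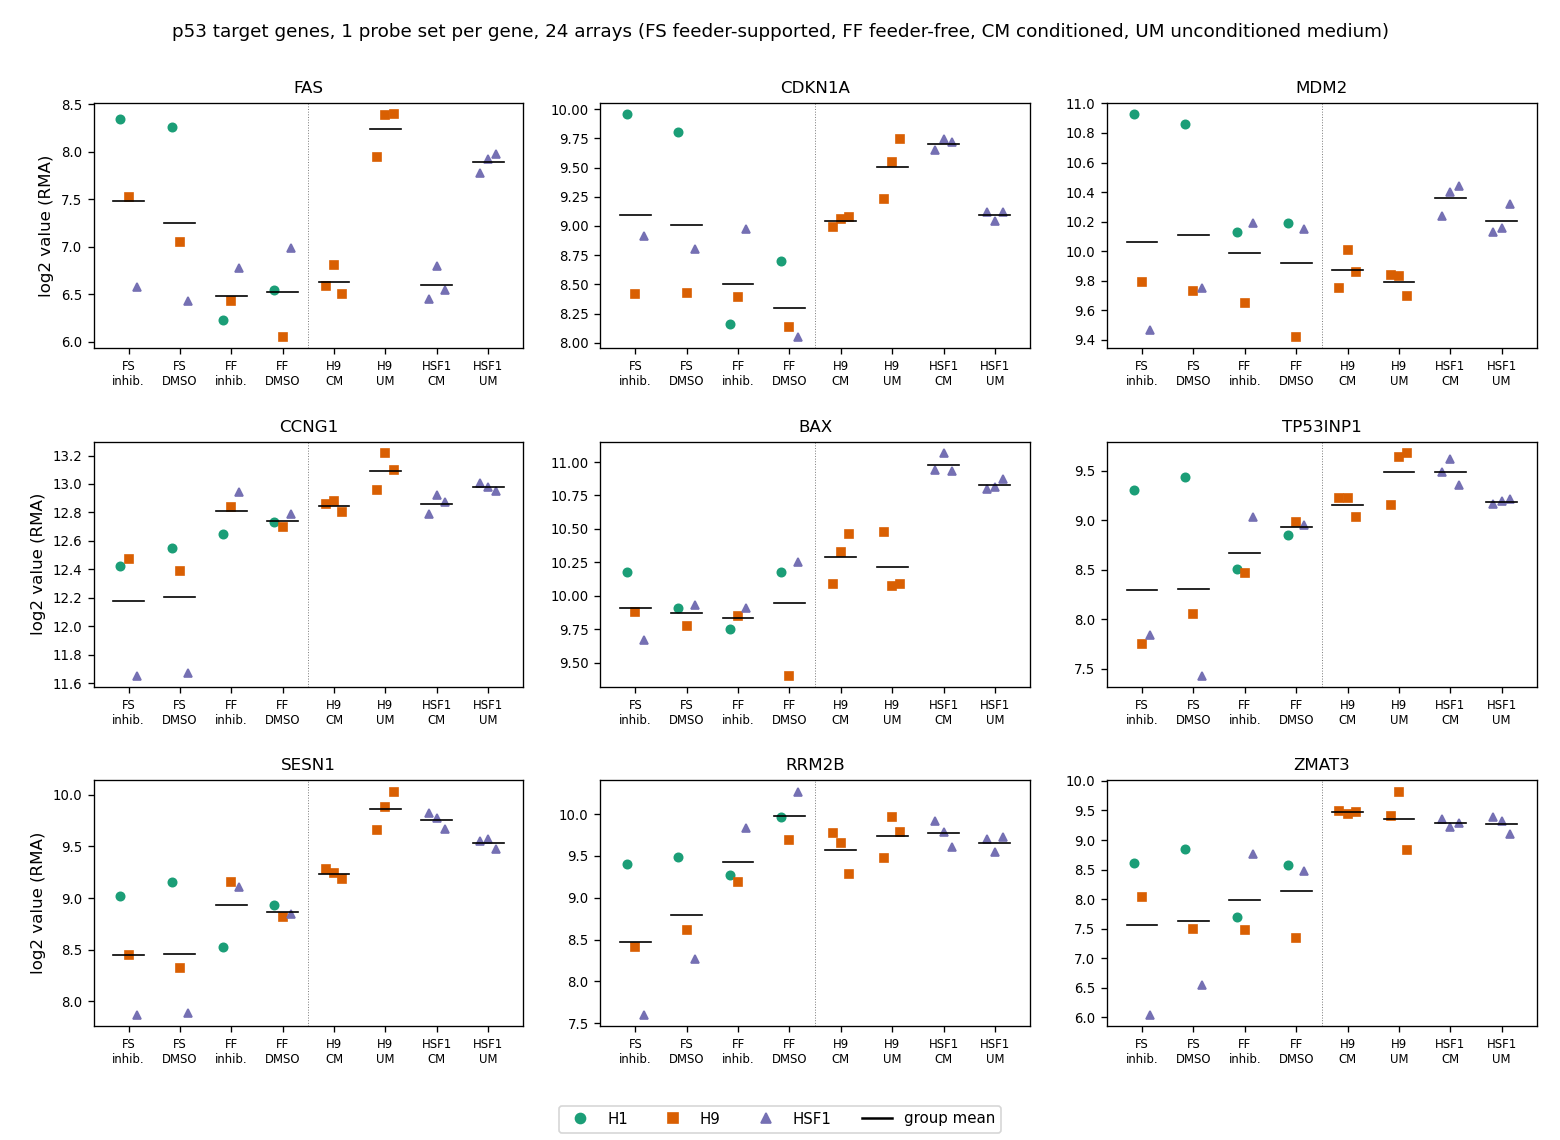
Log2 values (vertical axes) of the 9 p53 target genes on 24 arrays, by group. Points are arrays, coloured and shaped by cell line, and bars are group means. FAS is 6.45 to 6.81 in every conditioned-medium array and 7.78 to 8.40 in every unconditioned-medium array.

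FAS had its highest mean level in H9 cells in unconditioned medium, 8.24 ± 0.261 (SD, n = 3), followed by HSF1 cells in unconditioned medium at 7.89 ± 0.0995. Feeder-supported cells came next, with 7.48 ± 0.883 with inhibitor and 7.24 ± 0.930 with DMSO. The lowest levels were 6.63 ± 0.161 in H9 and 6.60 ± 0.179 in HSF1 cells in conditioned medium, and 6.48 ± 0.277 with inhibitor and 6.53 ± 0.473 with DMSO in feeder-free cells of the inhibitor part. Each neighbour in this order overlapped the next in its arrays, so the order of neighbours is not resolved. The SD is over 3 lines in the inhibitor part and over 3 replicates of 1 line in the medium part. Whether RMA was run on both parts together is not stated, and the parts were not tested against each other. The gap between the unconditioned-medium groups and the conditioned-medium groups exceeded the spread of all 4.

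The comparison of conditioned with unconditioned medium asks which genes follow factors secreted by the fibroblasts. In H9 cells FAS, CDKN1A, SESN1 and CCNG1 fell in conditioned medium and none of the 9 genes rose. In HSF1 cells FAS fell and CDKN1A rose. FAS was therefore lower in conditioned medium in both lines, 3.05-fold in H9 and 2.45-fold in HSF1, while CDKN1A, which encodes p21, moved in opposite directions. MDM2, BAX, RRM2B and the representative probe set of ZMAT3 did not pass the test in either line.

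The 4 of 9 genes that fell in H9 stand against a background of 13% of all 16572 genes tested called lower and 16.4% called either way. Without replicates 2 and 3 of H9 in unconditioned medium 2 of 9 fell, FAS and SESN1. The median difference of the 9 genes was -0.25, against -0.03 for all genes. In HSF1 the 2 of 9 genes called stand beside 18.3% of all genes called either way, 8.57% higher and 9.78% lower. The median difference of the 9 genes there was 0.15, against 0.03 for all genes. Since all 12 arrays share 1 estimate of the spread, the HSF1 count was 4 without replicate 1 of H9 in unconditioned medium, when TP53INP1 (adjusted p = 0.00646) and SESN1 (adjusted p = 0.0199) passed as well. A call is a Benjamini-Hochberg adjusted p under 0.05 in limma, adjusted over all genes tested.

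FAS, the death receptor gene, read 6.59, 6.81 and 6.50 in H9 cells in conditioned medium, against 7.94, 8.39 and 8.40 in unconditioned medium. In HSF1 cells it read 6.45, 6.80 and 6.55 in conditioned medium, against 7.78, 7.92 and 7.98 in unconditioned medium. The groups did not overlap in either line, and the ranges of both lines in conditioned medium overlapped. The difference was -1.61 in H9 (SE 0.126, adjusted p = 4.99e-07) and -1.29 in HSF1 (SE 0.126, adjusted p = 2.55e-06). The difference between these effects, H9 minus HSF1, was -0.32 (SE 0.178, adjusted p = 0.295) and did not pass. It passed without replicate 1 of H9 in unconditioned medium (-0.47, adjusted p = 0.0384), and for the FAS probe set 204781_s_at over all arrays (-0.48, SE 0.119, adjusted p = 0.0368). Without replicates 2 and 3 of H9 in unconditioned medium the H9 difference was -1.31 (adjusted p = 7.69e-05). Fewer cells with the transcript and less transcript per cell cannot be told apart in these bulk samples.

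The other FAS probe sets gave the same direction. All 5 fell in H9, by differences between -1.99 and -0.42, and 4 of 5 fell in HSF1, where the differences lay between -1.56 and -0.08. The probe set 215719_x_at read 4.55, 4.35 and 4.12 in H9 in conditioned medium, against 6.28, 6.15 and 6.55 in unconditioned medium, a difference of -1.99 (SE 0.166, adjusted p = 7.43e-06). The exception was 233820_at in HSF1, with 5.43, 5.41 and 5.57 in conditioned medium, against 5.62, 5.61 and 5.42 in unconditioned medium, where the groups overlapped and the adjusted p was 0.662. Over the 24 arrays this probe set correlated with the representative FAS probe set at r = 0.352, against 0.927 to 0.969 for the remaining 3. In all, 10 of the 22 member probe sets tested were called in H9, all lower, and 6 in HSF1, 2 higher and 4 lower. The backgrounds were 10.1% of all probe sets called in H9, 7.49% of all lower, and 11.4% in HSF1, 4.8% higher and 6.55% lower. These 10 include 5 for FAS and 2 for ZMAT3, so they are not independent. The count in H9 was 5 without replicates 2 and 3 in unconditioned medium, and 6 without replicate 3 alone.

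**Figure D2:**
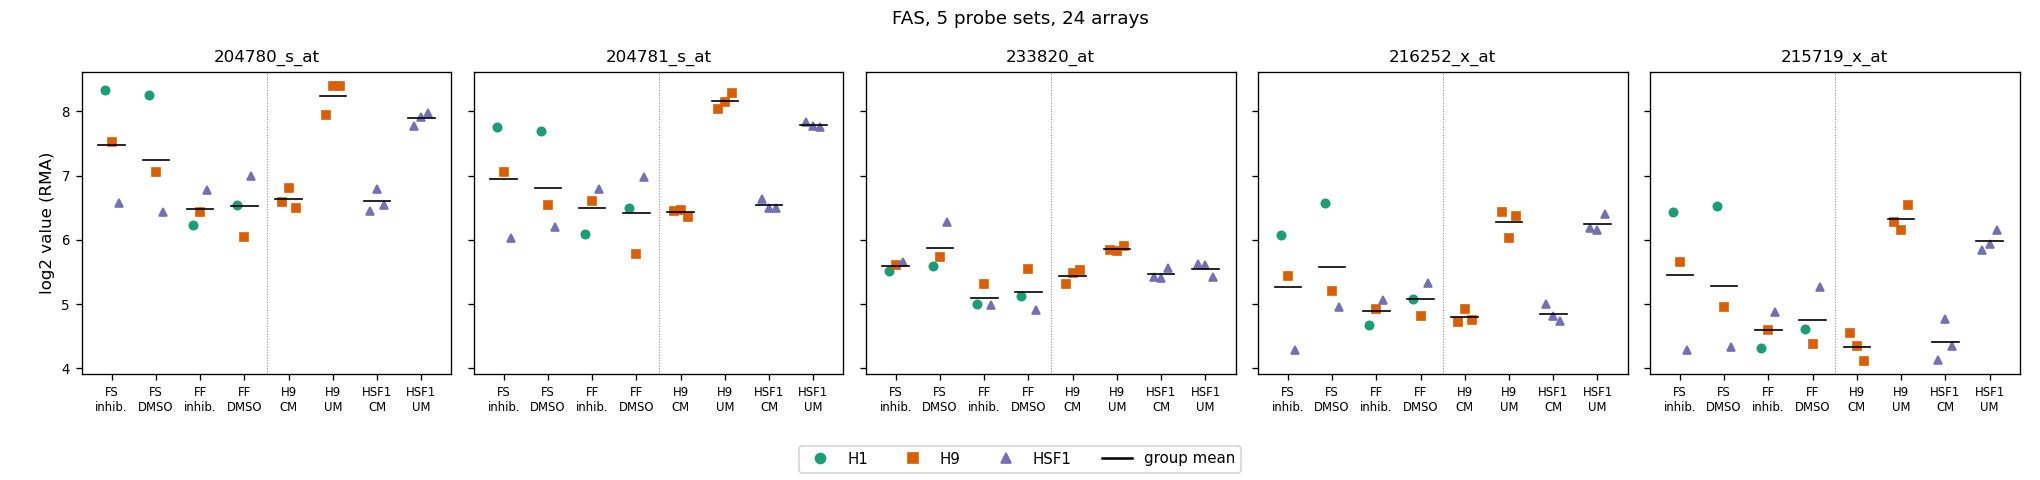
Log2 values (vertical axis) of the 5 FAS probe sets on 24 arrays, by group. Points are arrays, coloured and shaped by cell line, and bars are group means. In 4 of the 5 panels all conditioned-medium arrays lie below all unconditioned-medium arrays, and in 233820_at the HSF1 groups overlap.

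CDKN1A read 8.99, 9.06 and 9.08 in H9 cells in conditioned medium, against 9.23, 9.55 and 9.74 in unconditioned medium. In HSF1 cells it read 9.65, 9.74 and 9.72 in conditioned medium, against 9.12, 9.04 and 9.12 in unconditioned medium. The groups did not overlap in either line, and the order of the media was opposite. The difference was -0.46 in H9 (SE 0.0969, adjusted p = 0.0042) and 0.61 in HSF1 (SE 0.0969, adjusted p = 0.000332). The effects of the medium differed between the lines by -1.07, H9 minus HSF1 (SE 0.137, adjusted p = 0.000327). Without replicates 2 and 3 of H9 in unconditioned medium, the H9 difference was -0.19 and no longer passed (adjusted p = 0.277), while the difference between lines was -0.80 (adjusted p = 0.000483).

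SESN1 encodes sestrin 1, a stress protein that restrains mTORC1 signalling. It read 9.28, 9.24 and 9.18 in H9 in conditioned medium, against 9.66, 9.88 and 10.03 in unconditioned medium. In HSF1 it read 9.82, 9.77 and 9.67 in conditioned medium, against 9.55, 9.57 and 9.47 in unconditioned medium. Neither pair of groups overlapped. SESN1 fell in H9 (difference -0.63, SE 0.084, adjusted p = 0.000115), and its difference of 0.22 in HSF1 (SE 0.084, adjusted p = 0.0807) did not pass. The effects differed between the lines by -0.85 (SE 0.119, adjusted p = 0.000778). Without replicates 2 and 3 of H9 in unconditioned medium the H9 difference was -0.43 (adjusted p = 0.00798) and the difference between lines -0.65 (adjusted p = 0.00343).

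TP53INP1, a stress-induced protein that acts in cell death and autophagy, had the same pattern of signs. It read 9.22, 9.22 and 9.03 in H9 in conditioned medium, against 9.15, 9.64 and 9.68 in unconditioned medium, where the groups overlapped through replicate 1. In HSF1 it read 9.49, 9.62 and 9.35 in conditioned medium, against 9.16, 9.19 and 9.21 in unconditioned medium, without overlap. Its differences of -0.33 in H9 (adjusted p = 0.0568) and 0.31 in HSF1 (adjusted p = 0.0775) did not pass, while the difference between lines was -0.64 (SE 0.162, adjusted p = 0.0254). That call was lost in 10 of 21 alternative fits, with an adjusted p of up to 0.216 without replicates 2 and 3 of H9 in unconditioned medium. The call also rests on the representative probe set, since for 244721_at the difference between lines was 0.13 (adjusted p = 0.623).

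CCNG1 encodes cyclin G1, which interacts with protein phosphatase and MDM2. It read 12.86, 12.88 and 12.80 in H9 in conditioned medium, against 12.96, 13.22 and 13.10 in unconditioned medium, without overlap. In HSF1 it read 12.79, 12.92 and 12.87 in conditioned medium, against 13.01, 12.98 and 12.95 in unconditioned medium, also without overlap. The fall in H9 was 1.19-fold (difference -0.25, SE 0.061, adjusted p = 0.0125), and the difference of -0.12 in HSF1 did not pass (adjusted p = 0.183). The H9 call was lost in 4 of 21 alternative fits, among them the one without replicates 2 and 3 in unconditioned medium (difference -0.11, adjusted p = 0.464) the one with the ACTB covariate (-0.17, adjusted p = 0.0714) and those without replicate 3 in conditioned medium or replicate 2 in unconditioned medium.

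MDM2 stayed within narrow ranges in each line. It ran from 9.75 to 10.01 in H9 in conditioned medium and from 9.70 to 9.84 in unconditioned medium, and from 10.24 to 10.44 in HSF1 in conditioned medium and from 10.13 to 10.32 in unconditioned medium. The groups overlapped in both lines, with differences of 0.09 (SE 0.0824, adjusted p = 0.474) and 0.15 (SE 0.0824, adjusted p = 0.219). None of the 4 MDM2 probe sets tested in the medium part was called. BAX differed by 0.08 in H9 (SE 0.104) and 0.15 in HSF1 (SE 0.104), and RRM2B, the p53-inducible small subunit of ribonucleotide reductase, by -0.17 in H9 (SE 0.128) and 0.11 in HSF1 (SE 0.128). Neither gene passed in either line.

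The probe sets of ZMAT3, which encodes an RNA-binding zinc finger protein, disagreed. The representative 228315_at read 9.49, 9.44 and 9.47 in H9 in conditioned medium, against 9.41, 9.82 and 8.83 in unconditioned medium, with overlap. In contrast 227221_at read 8.09, 8.22 and 8.16 in conditioned medium, against 8.34, 8.78 and 8.98 in unconditioned medium, and fell (difference -0.54, SE 0.122, adjusted p = 0.013). In HSF1 the same probe set read 8.99, 9.07 and 9.12 in conditioned medium, against 8.63, 8.58 and 8.61 in unconditioned medium, and rose (difference 0.45, SE 0.122, adjusted p = 0.0281). Its effects differed between the lines by -0.99 (SE 0.172, adjusted p = 0.00768), as did those of 225725_at by -0.70 (SE 0.188, adjusted p = 0.0483), whereas the representative probe set gave 0.10 (adjusted p = 0.844). In H9 in unconditioned medium both 227221_at and 225725_at were higher in replicates 2 and 3, the arrays of high ACTB difference, than in replicate 1. Fits of these probe sets without those arrays are not given.

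**Figure D3:**
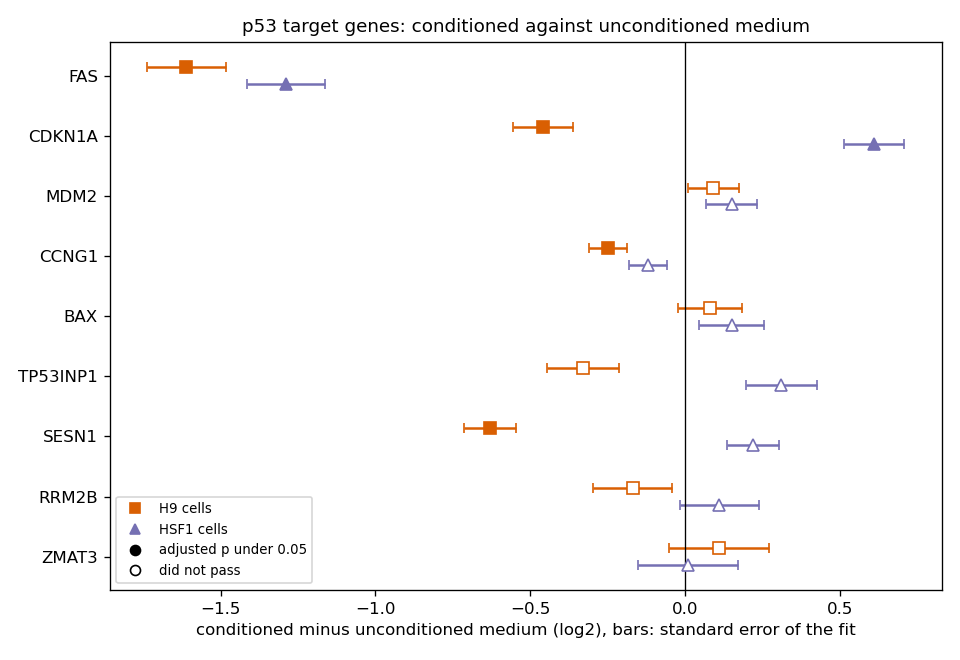
Difference of conditioned minus unconditioned medium on the log2 scale (horizontal axis) for each of the 9 genes, with H9 squares above HSF1 triangles and bars of 1 standard error. Filled symbols passed an adjusted p of 0.05. FAS lies left of 0 in both lines, and CDKN1A lies at -0.46 in H9 and 0.61 in HSF1.

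The test of the difference between lines called 3 of the 9 genes, CDKN1A, SESN1 and TP53INP1, all more negative in H9, against 7.73% of all genes called either way and 5.65% in that direction. At the level of probe sets it called 6 of 22, against 4.58% of all, and 3 of 22 without both H9 arrays of high ACTB difference. Groups without overlap were seen for 4 of 9 genes in H9 and 6 of 9 in HSF1, against 29.1% and 42.8% of all genes. Of 13 pluripotency markers 5 rose and none fell in H9 in conditioned medium, and 3 rose and 3 fell in HSF1. The effect of the medium was called for 16.4% of all genes in H9 and 18.3% in HSF1. The summed log2 level of 18 fibroblast markers was 125.7 to 126.8 in H9 in conditioned medium, against 125.6 to 127.2 in unconditioned medium, so the ranges overlapped. In HSF1 it was 122.5 to 125 in conditioned medium, against 124.6 to 125.7 in unconditioned medium. The sum covers markers that moved both ways. Of 15 fibroblast markers tested, IGFBP7 and PDGFRA rose and COL1A1, COL1A2, COL5A1 and FBN1 fell in H9 in conditioned medium. In HSF1 COL1A2 and THY1 fell, a smaller share than the 18.3% of all genes. Between 2 and 3 of the 18 fibroblast markers were below 5 on every array of each of these groups. The part of the ACTB difference in the H9 results was tested only by leaving arrays out and by a covariate.

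Among 31 further p53 targets tested in the medium part, 2 rose and 7 fell in H9 in conditioned medium, beside 16.4% of all genes called either way. In HSF1 7 rose and 4 fell, beside 18.3% of all genes. In H9, DRAM1, a lysosomal membrane protein that promotes autophagy, fell (difference -0.66, adjusted p = 0.000135), as did PERP, a membrane protein of desmosomes (-0.47, adjusted p = 0.000222), and GDF15, a secreted stress cytokine (-0.64, adjusted p = 0.00249). PMAIP1, which encodes the BH3-only death protein NOXA, rose (0.66, adjusted p = 0.0042), and so did RPS27L, a ribosomal protein paralog (0.25, adjusted p = 0.024). Without replicates 2 and 3 of H9 in unconditioned medium the calls for PMAIP1 (0.28, adjusted p = 0.215) and RPS27L (adjusted p = 0.144) were lost, and RPS27L was lost in 9 of 21 alternative fits. In HSF1, KITLG, the ligand of the receptor KIT, rose (1.08, adjusted p = 7.02e-07), as did DDB2, a sensor of ultraviolet DNA damage (0.60, adjusted p = 1.41e-05), and PIDD1, a death domain protein (0.51, adjusted p = 9.93e-05). PERP fell there as well (-0.32, adjusted p = 0.00365), with TP53I3, a quinone oxidoreductase (-0.51, adjusted p = 0.000191), and BLOC1S2, a subunit of a lysosome-related complex (-0.40, adjusted p = 0.00146). Of 6 regulators of p53 tested, 1 fell and none rose in H9, and none passed in HSF1. It was PPM1D, a phosphatase that acts against p53 (-0.42, adjusted p = 0.00334), named here after its values were seen, and its call was lost without both H9 arrays of high ACTB difference (adjusted p = 0.215). With the mean of all probe sets the calls for PERP in H9 (-0.13, adjusted p = 0.156) and in HSF1 (-0.15, adjusted p = 0.0872) and for GDF15 in H9 (-0.12, adjusted p = 0.292) were lost, and KITLG in HSF1 gave 0.38. The difference between lines was called for 11 of the 31 further targets, 10 of them more negative in H9, beside 7.73% of all genes.

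The comparison of feeder-supported with feeder-free culture asks what feeder cells change. Whether the feeder-supported samples hold RNA of the mouse fibroblasts was not tested, so a difference cannot be assigned to the stem cells alone. With DMSO RRM2B fell in feeder-supported cells, and with inhibitor CCNG1 fell, and no other of the 9 genes passed. This was 1 of 9 genes in each comparison, where 39.3% of all 17218 genes tested were called with DMSO (24.1% of all genes lower) and 47.1% with inhibitor (27.8% of all genes lower). The median difference of the 9 genes was -0.41 with DMSO and -0.37 with inhibitor, against -0.19 and -0.20 for all genes. In these 2 comparisons the inhibitor and DMSO arrays of the same line and culture system counted as separate, although they shared deviations from their group means. The p-values and the shares of genes called can be too favourable for that reason. Both comparisons also rest on the scaling. With quantile normalization the median was 0.04 in both, for all genes and for the 9 members alike. The lower member medians were thus not seen under this scaling. Of the genes called 50.6% and 49.9% were then higher, against 38.7% and 41% in the values as deposited. CDKN1A (1.18 with DMSO and 1.07 with inhibitor) and MDM2 (0.66 and 0.54) then passed as higher in both. BAX passed as higher with inhibitor (adjusted p = 0.0496), and RRM2B lost its call with DMSO. Without both feeder-supported HSF1 arrays, in the values as deposited, MDM2 also passed in both comparisons and CCNG1 also passed with DMSO.

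RRM2B supplies DNA precursors outside S phase as a subunit of ribonucleotide reductase. With DMSO it read 9.49 in H1, 8.61 in H9 and 8.27 in HSF1 in feeder-supported culture, against 9.97, 9.69 and 10.27 in feeder-free culture. All 3 lines were lower with feeders and the groups did not overlap (difference -1.19, SE 0.385, adjusted p = 0.0333). With inhibitor it read 9.40, 8.41 and 7.60 in feeder-supported culture, against 9.27, 9.19 and 9.84 in feeder-free culture, where H1 was not lower, and the difference of -0.96 did not pass (adjusted p = 0.0576). The call with DMSO was lost without H1 (-1.54, adjusted p = 0.0572), without H9 (-1.24, adjusted p = 0.132) with quantile normalization (-0.70, adjusted p = 0.135), without the block for line (adjusted p = 0.0724) and with the ACTB difference as a covariate (-0.26, adjusted p = 0.735). It held without both feeder-supported HSF1 arrays (-0.76, adjusted p = 0.0141).

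CCNG1 with inhibitor read 12.42 in H1, 12.47 in H9 and 11.65 in HSF1 in feeder-supported culture, against 12.65, 12.84 and 12.94 in feeder-free culture. All 3 lines were lower with feeders, most in HSF1 (difference -0.63, SE 0.215, adjusted p = 0.0344). With DMSO it read 12.55, 12.39 and 11.67 in feeder-supported culture, against 12.73, 12.70 and 12.79 in feeder-free culture, in the same order but with an adjusted p of 0.0632. The call with inhibitor was lost without H1 (adjusted p = 0.0768), without H9 (adjusted p = 0.079), without the block for line (adjusted p = 0.0729) and with the ACTB covariate (-0.31, adjusted p = 0.398), and without both feeder-supported HSF1 arrays the difference was -0.32 (adjusted p = 0.0118).

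FAS differed between the lines in its direction. With DMSO it read 8.26 in H1, 7.05 in H9 and 6.43 in HSF1 in feeder-supported culture, against 6.54, 6.05 and 6.99 in feeder-free culture. With inhibitor it read 8.34, 7.52 and 6.58 in feeder-supported culture, against 6.23, 6.43 and 6.78 in feeder-free culture. H1 and H9 were thus higher with feeders, by 1.71 and 1.00 with DMSO and by 2.11 and 1.10 with inhibitor, and HSF1 gave -0.57 and -0.20. Over the 3 lines the differences of 0.72 (adjusted p = 0.176) and 1.00 (adjusted p = 0.0698) did not pass. Without both feeder-supported HSF1 arrays, which stood apart, the differences were 1.32 (adjusted p = 0.00398) with DMSO and 1.65 (adjusted p = 0.00176) with inhibitor. FAS also passed as higher in both with array weights and without the HSF1 line, and with inhibitor under the ACTB covariate. In all it passed in 3 of 12 alternative fits with DMSO and in 4 of 12 with inhibitor. The difference between lines was not tested.

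In 4 of the 8 other members H1 and HSF1 also had opposite signs. In H1 the feeder-supported minus feeder-free difference with DMSO was above 0 for CDKN1A (1.10), MDM2 (0.67), TP53INP1 (0.58), SESN1 (0.23) and ZMAT3 (0.28). In HSF1 it was 0.76 for CDKN1A, and below 0 for MDM2 (-0.41), TP53INP1 (-1.53), SESN1 (-0.96) and ZMAT3 (-1.94). H9 lay between them for MDM2 (0.30), TP53INP1 (-0.94) and SESN1 (-0.51), and below both for CDKN1A (0.30). CCNG1 (-0.17 in H1 and -1.12 in HSF1), BAX (-0.27 and -0.32) and RRM2B (-0.48 and -2) were below 0 in both lines. The HSF1 values rest on the feeder-supported HSF1 arrays that stood apart. By its representative probe set, MDM2 reached its highest levels of all 24 arrays in feeder-supported H1 cells, 10.93 with inhibitor and 10.86 with DMSO. TP53INP1 was 9.30 and 9.43 there, against 7.43 to 8.05 in the other feeder-supported lines.

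**Figure D4:**
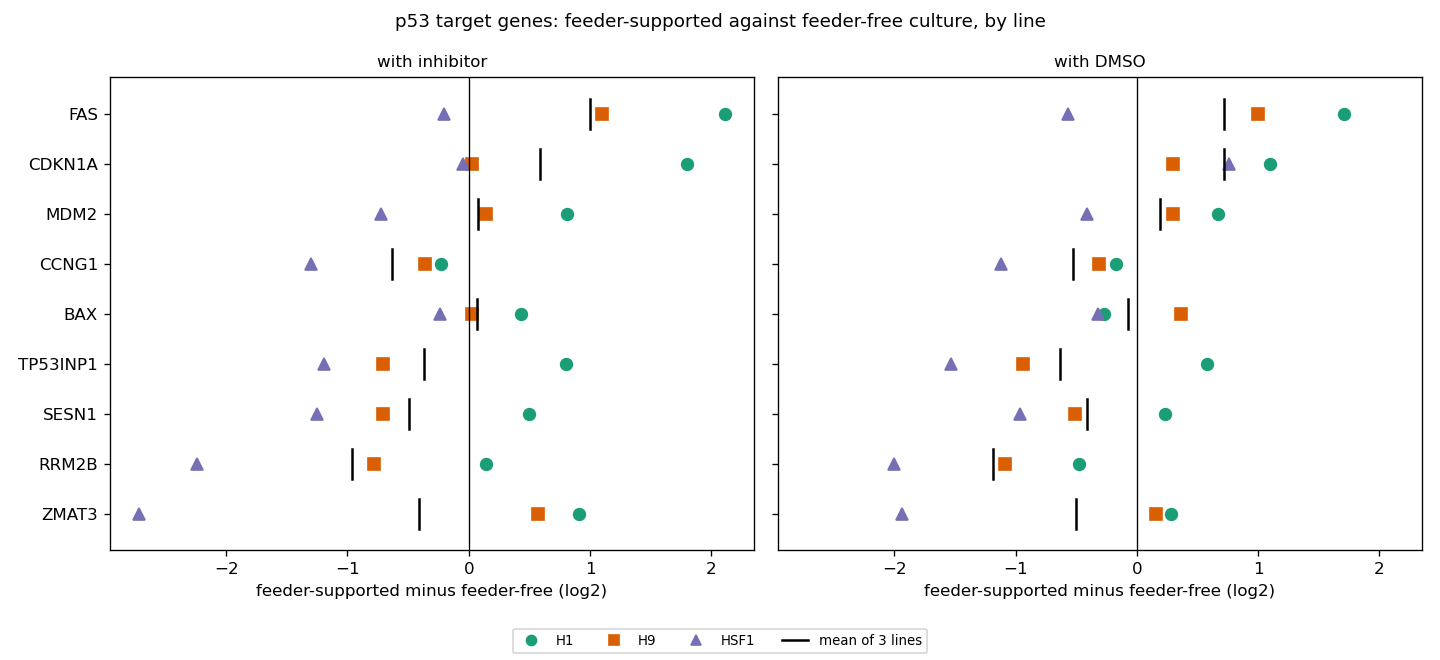
Difference of feeder-supported minus feeder-free culture on the log2 scale (horizontal axes) for each gene in each line, with inhibitor on the left and with DMSO on the right. Points are single differences of 2 arrays of a line, and vertical bars are means of 3 lines. H1 lies right of HSF1 for 9 of 9 genes on the left and right, and FAS spans -0.57 to 1.71 with DMSO.

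Among all member probe sets 4 of 24 were called with DMSO and 4 with inhibitor, 3 higher and 1 lower in each, against 39.5% and 47.2% of all probe sets. The 1 lower was that of RRM2B with DMSO and that of CCNG1 with inhibitor. With DMSO the 3 that rose were 233820_at of FAS (0.68, adjusted p = 0.0254), 217373_x_at of MDM2 (0.91, adjusted p = 0.0109) and 244721_at of TP53INP1 (0.65, adjusted p = 0.0385). With inhibitor they were 217373_x_at (0.57, adjusted p = 0.0433) and 244616_x_at (0.73, adjusted p = 0.0248) of MDM2 and 208478_s_at of BAX (0.54, adjusted p = 0.038). None of the probe sets that rose was the representative of its gene. Each rose most in HSF1, with DMSO by 1.36 for 233820_at, 1.44 for 217373_x_at and 1.07 for 244721_at. These values rest on the feeder-supported HSF1 arrays that stood apart, and fits of these probe sets without those arrays are not given. With DMSO the representatives gave 0.72 for FAS, 0.19 for MDM2 and -0.63 for TP53INP1. With inhibitor they gave 0.08 for MDM2 and 0.07 for BAX. Over the 24 arrays 244721_at correlated with the TP53INP1 representative at r = -0.779.

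Other measures were compared between the culture systems. Of 18 fibroblast markers 7 rose and none fell in feeder-supported cells with DMSO, and 5 rose and 3 fell with inhibitor. These counts lie near the 39.3% and 47.1% of all genes called either way. Their summed level was 137.2 to 148.5 in feeder-supported cells with DMSO, against 123.1 to 135.9 in feeder-free cells, and 140.2 to 154 in feeder-supported cells with inhibitor, against 127.3 to 140.3. Of 13 pluripotency markers 7 fell and none rose with DMSO, and 9 fell and 1 rose with inhibitor. Of all genes 24.1% and 27.8% were called lower. The ACTB difference was -0.15 to 0.80 in feeder-supported cells with DMSO, against 0.65 to 1.00 in feeder-free cells. Apart from the covariate above, their part in the member values was not tested.

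Of the 31 further targets 5 rose and 4 fell in feeder-supported cells with DMSO, and 7 rose and 5 fell with inhibitor. These 9 and 12 of 31 stand beside 39.3% and 47.1% of all genes called either way. PLK3, a stress-responsive polo-like kinase, rose by 1.94 with DMSO (adjusted p = 0.00481) and by 2.21 with inhibitor (adjusted p = 0.00202). EDA2R, a receptor of the tumour necrosis factor family, rose by 1.39 in both (adjusted p = 0.00884 and 0.00761). SFN, the 14-3-3 sigma protein, rose by 0.95 with inhibitor (adjusted p = 0.022). TNFRSF10A, a death receptor for TRAIL, fell with DMSO (-1.74, adjusted p = 0.00737), as did CYFIP2, a protein of the WAVE complex (-1.18, adjusted p = 0.02), and FBXO22, an F-box protein, fell with inhibitor (-1.28, adjusted p = 0.0156). Among 6 regulators, TP73, a relative of p53, rose with DMSO (0.65, adjusted p = 0.0204), the p53 inhibitor MDM4 fell with DMSO (-1.24, adjusted p = 0.0332) and with inhibitor (-1.70, adjusted p = 0.011), and the kinase ATM fell with inhibitor (-1.10, adjusted p = 0.0187). With inhibitor 1 of the 6 regulators rose, TP73 (0.46, adjusted p = 0.0494), and 4 fell, the other two being the kinase CHEK2 (-0.75, adjusted p = 0.0376) and the deubiquitinase USP7 (-0.66, adjusted p = 0.0405), named after their values were seen. With the ACTB covariate all 6 genes named with DMSO lost their calls, among them PLK3 (adjusted p = 0.119) and MDM4 (-0.22, adjusted p = 0.77), and with inhibitor PLK3 and SFN held among the 9 named. Quantile normalization ended the calls for MDM4 and CYFIP2 with DMSO and for ATM, TP73, CHEK2 and USP7 with inhibitor. The call for TP73 with inhibitor was lost in 10 of 12 alternative fits, that for USP7 in 8, that for CHEK2 in 6 and those for TP73 and MDM4 with DMSO in 5 each. All 6 genes named with DMSO differed most in HSF1, among them EDA2R (0.68 in H1 and 2.26 in HSF1) and MDM4 (-0.41 and -2.17). SFN with inhibitor differed most in H1 (1.82 in H1 and 0.29 in HSF1). Without both feeder-supported HSF1 arrays TP73 and USP7 with inhibitor lost their calls, and the other named calls held.

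The comparison of the MCT1 inhibitor with DMSO asks what a block of lactate export changes. With line alone as a block, none of the 9 genes passed in feeder-supported cells, in feeder-free cells or in the mean of both. None passed in the test of whether culture altered the effect, and 0 of 9 had an unadjusted p under 0.05 in any of these limma tests. The background was also small, with 0.00581%, 0.842%, 0.639% and 0.0174% of all genes called. At the level of probe sets, 0 of 24 were called in each of these tests, against 0.00238%, 0.544%, 0.28% and 0.00475% of all. The member medians were -0.01 in feeder-supported and -0.05 in feeder-free cells, against 0.01 and -0.01 for all genes. None of the 31 further targets or 6 regulators was called. On simulated data a true change of 1 on the log2 scale was called for 45% of genes in the feeder-free comparison, so this fit could miss changes of this size. The simulated arrays were independent and had the spread of the fit with line alone as a block. The 45% therefore does not hold for a fit by pairs of line and culture system. With each such pair as the block RRM2B passed, as given below.

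RRM2B was the member with the same sign in every pair, lower with inhibitor in 6 of 6 pairs. In feeder-free cells it read 9.27 in H1, 9.19 in H9 and 9.84 in HSF1 with inhibitor, against 9.97, 9.69 and 10.27 with DMSO. In feeder-supported cells it read 9.40, 8.41 and 7.60 with inhibitor, against 9.49, 8.61 and 8.27 with DMSO. The groups overlapped in both culture systems, and the mean difference was -0.43 (SE 0.273, adjusted p = 0.853). Arrays of the same line and culture system shared deviations from their group means (r = 0.681 to 0.919 over genes), and with each such pair as the replicate block RRM2B passed in feeder-free cells (-0.55, adjusted p = 0.00957) and in the mean (adjusted p = 0.00462).

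FAS changed little with inhibitor within a line, by 0.09 in H1, 0.47 in H9 and 0.15 in HSF1 in feeder-supported cells and by -0.31, 0.38 and -0.22 in feeder-free cells. The difference was 0.24 (SE 0.430, adjusted p = 1) and -0.05 (SE 0.430, adjusted p = 1). It passed in feeder-supported cells only when arrays were weighted by their quality (0.81, adjusted p = 0.0427). CDKN1A differed by 0.09 (SE 0.343) and 0.21 (SE 0.343), with -0.55 in H1, 0.26 in H9 and 0.92 in HSF1 in feeder-free cells. MDM2 differed by -0.04 and 0.07 (SE 0.286 each). These standard errors come from the fit with line alone as a block. With each pair of line and culture system as the replicate block they were 0.144 for FAS, 0.194 for CDKN1A and 0.101 for MDM2, and the 3 genes still did not pass, with adjusted p-values of 0.496 to 0.893 in feeder-supported and 0.54 to 0.869 in feeder-free cells. A missed threshold does not show that the inhibitor had no effect.

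The members varied together to different degrees across the 24 arrays, which share lines, culture systems and RNA handling. The correlation was r = 0.906 for TP53INP1 and SESN1, 0.874 for CCNG1 and SESN1 and 0.862 for SESN1 and ZMAT3. Low values were found for FAS with RRM2B (0.175), MDM2 with CCNG1 (0.180) and FAS with BAX (0.200), while FAS and CDKN1A gave 0.524. These values depended on which arrays were used. Over the 18 feeder-free arrays FAS and CCNG1 gave 0.878, against 0.313 over all 24, and SESN1 and RRM2B gave 0.157, against 0.762. Among 13757 genes compared, the genes most like FAS were ANXA4 (r = 0.847), SLC35G2 (0.795), SVIL (0.793) and KIAA1217 (0.778). Those most like CDKN1A were DRAM1 (0.869), EPS8L2 (0.859), MAST4 (0.801) and POLH (0.787), of which DRAM1 and POLH are listed p53 targets. Those most like MDM2 were MAP1LC3B (0.868), RAP1GAP2 (0.865), SSR3 (0.864) and SLC35D2 (0.857). Over the 18 feeder-free arrays these 12 correlations lay between 0.715 and 0.928.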

How the data were processed

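RNA of human embryonic stem cell lines was hybridised to 24 Affymetrix U133 Plus 2.0 arrays. The authors deposited log2 values from RMA, per the submitters' processing notes. The software version is not given in the sources used here, nor is it said whether RMA was run jointly. Of 54675 probe sets, 41097 carried 1 gene symbol in the platform annotation. Each gene was represented by its probe set with the highest mean over the 24 arrays. A gene was tested in a part if 3 or more of the 12 arrays there read above 5 on the log2 scale, which kept 17218 genes for the inhibitor and culture comparisons and 16572 for the medium comparisons.

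Groups were taken from the sample titles. All 12 arrays of a part entered 1 fit of limma 3.58.1, run in R 4.3.3 with lmFit and trended eBayes. The Benjamini-Hochberg adjustment ran over all genes or probe sets tested, with a threshold of 0.05. In the inhibitor part a replicate number is a cell line, so the line was a block. The p-values there rest on the spread left after group and line. For the inhibitor this spread includes differences between lines in their response to culture, which cancel within a pair of line and culture system. For culture, the inhibitor and DMSO arrays of such a pair counted as separate although they shared deviations, so those p-values can be too small. In the medium part same-numbered samples of the groups compared did not pair (r = -0.246 to 0.132), no block was used, and p-values measure the spread between biological replicates of 1 line. Precision is limited by the number of arrays, which have no read depth. On simulated data, a change of 1 on the log2 scale was called for 45% of genes in the comparison of inhibitor with DMSO in feeder-free cells (17218 genes) and for 98% in the comparison of media in H9 cells (16572 genes). The simulated arrays were independent, so the 45% leaves out the deviations shared by arrays of the same line and culture system.

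The members and all lists were chosen with earlier results of these data known. The lists were 8 regulators of p53 (6 tested), 34 further targets (31 tested), 15 pluripotency markers and 18 fibroblast markers. All members are named. Of the other pathway genes that passed in a comparison, the 3 lowest p-values on either side are named, and for FAS, CDKN1A and MDM2 the 4 genes of most similar profile. Promoter sequences are from RefSeq (GRCh38.p14). Alternatives were other scalings, filters, probe set rules, array weights, the difference of ACTB probe sets as a covariate, blocks and the removal of arrays.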

Additional observations from a re-analysis of the deposited data

Results flagged for a closer look

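The test of the difference between H9 and HSF1 in their response to conditioned medium passed in limma (Benjamini-Hochberg, over all genes) for 7.73% of all genes, among them 3 of the 9 members and 11 of 31 further targets. The 3 members and the 4 further targets named by the rule are given here. Each value is the H9 difference minus the HSF1 difference on the log2 scale, and means are of 3 arrays. The values of CDKN1A (-1.07), SESN1 (-0.85) and TP53INP1 (-0.64) stand in the report.

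DRAM1, a lysosomal membrane protein, averaged 7.92 in H9 in conditioned medium, against 8.58 in unconditioned medium, and 8.55 in HSF1 in conditioned medium, against 8.28. The effects differed by -0.93 (SE 0.128, adjusted p = 0.000681), and the call held in 21 of 21 alternatives. DDB2, a sensor of ultraviolet DNA damage, averaged 9.46 in H9 in conditioned medium, against 9.65 in unconditioned medium, and 10.36 in HSF1 in conditioned medium, against 9.76. The effects differed by -0.79 (SE 0.0969, adjusted p = 0.000245), also in 21 of 21 alternatives. KITLG averaged 9.14 in H9 in conditioned medium, against 9.20 in unconditioned medium, and 10.03 in HSF1 in conditioned medium, against 8.95. The effects differed by -1.14 (SE 0.132, adjusted p = 0.000193), and the call was lost in 1 of 21 alternatives, the mean of all probe sets (-0.38). PMAIP1, which encodes NOXA, was the 1 gene of these 7 with the opposite sign. It averaged 12.21 in H9 in conditioned medium, against 11.55 in unconditioned medium, and 11.57 in HSF1 in conditioned medium, against 11.62. The effects differed by 0.71 (SE 0.196, adjusted p = 0.0369), and the call was lost in 10 of 21 alternatives.

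The difference between the ACTB probe sets was higher on 2 H9 arrays in unconditioned medium (replicates 2 and 3), and its part in these differences was not tested beyond the removal of those arrays and the covariate.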

How the results depend on the processing

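Over 112 pairs of a gene and a comparison, the alternative fits gave 1767 alternative results. Each fit gave results for many of these pairs, so they are not independent. In 1622 the call and the direction of called values stayed, in 104 a call was lost, in 40 a call was gained and in 1 a called value changed sign. That was the difference between lines for ZMAT3, -0.38 (adjusted p = 0.0336) with the mean of all its probe sets, against 0.10. Among values never called, 104 changed sign. For the inhibitor, where no gene or probe set was called, array weights gave 1 gene and 13 probe sets in feeder-supported cells and 1 gene and 10 probe sets in the mean. The replicate block of line within culture system gave 1 gene and 1 probe set in feeder-free cells and in the mean. For culture with DMSO, the 1 gene called became 2 with quantile normalization and with the mean of probe sets, 3 with array weights, 4 without both feeder-supported HSF1 arrays, 0 with the ACTB covariate, 0 with no replicate block, and 0 to 2 without 1 line. The 4 probe sets became 7 without the filter, 2 with a filter at 6, 11 with array weights, 12 without both HSF1 arrays, 0 with the covariate, 1 with no replicate block, and 0 to 5 without 1 line. For culture with inhibitor, the 1 gene became 4 with quantile normalization and with array weights, 3 without both HSF1 arrays, 0 with no replicate block, and 0 to 2 without 1 line. The 4 probe sets became 2 with arrays shifted to a common median or with the covariate, 17 with array weights, 9 without both HSF1 arrays, 0 with no replicate block, and 0 to 7 without 1 line. For medium in H9, 4 genes and 10 probe sets became 2 and 5 without both unconditioned-medium arrays of high ACTB difference, an alternative chosen after seeing the data, and leaving out 1 array gave 3 to 5 genes and 6 to 14 probe sets. In HSF1, the 2 genes became 4 with quantile normalization, 5 with array weights or the covariate, 4 without both H9 arrays, and 2 to 4 without 1 array. The difference between lines, 6 probe sets, became 3 with the covariate, 3 with the replicate block, 3 without both H9 arrays, and 3 to 7 without 1 array. Numbers did not pair samples of the medium part, and with them as a block TP53INP1 lost its difference between lines (adjusted p = 0.0573). Apart from the fits with fewer arrays, the cause was not tested. Signal near background limits probe sets at a level near 5, and differences between lines in the inhibitor part were not tested.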

Other observations

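The cells in feeder-free culture in the inhibitor part had FAS levels of 6.05 to 6.99, which lay with the conditioned-medium arrays (6.45 to 6.81) and below the unconditioned-medium arrays (7.78 to 8.40), although all 3 sets are described as feeder-free. The medium of the inhibitor part is not given in the labels, and the parts were not tested against each other.

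By the representative probe set, feeder-supported H1 cells had the highest MDM2 levels of the 24 arrays. Not all MDM2 probe sets did so. By 244616_x_at, which correlated with the representative at r = -0.0771, feeder-supported HSF1 cells were highest, at 9.26 with inhibitor and 8.72 with DMSO. FAS in feeder-supported H1 cells was 8.34 with inhibitor and 8.26 with DMSO, within the range of the unconditioned-medium arrays. Each value is 1 array, and the difference from the other lines was not tested.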
